A study of Danio rerio with 27 samples.

Results

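The genes described here are the NF-kB transcription factors and their inhibitors, measured by RNA sequencing in whole zebrafish larvae. They were chosen by symbol, as every entry of the expression table named nfkb1, nfkb2, rela, relb, rel, nfkbiaa, nfkbiab, nfkbib or tnfaip3. The rule uses no expression value, although the symbols were picked with earlier results of these data known. The 9 symbols covered 10 gene identifiers of 24101 in the table, because nfkbib carried 2. The factors were nfkb1 (ENSDARG00000105261), nfkb2 (ENSDARG00000038687), rela (ENSDARG00000098696), relb (ENSDARG00000086173) and rel (ENSDARG00000055276). The inhibitors were nfkbiaa (ENSDARG00000005481), nfkbiab (ENSDARG00000007693), nfkbib (ENSDARG00000030087 and ENSDARG00000109444) and tnfaip3 (ENSDARG00000027777).

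NF-kB factors are dimers of Rel family proteins that IkB proteins hold in the cytoplasm of resting cells. Signals from cytokine and pattern recognition receptors activate the IkB kinases, which mark IkB for destruction and free the dimers to enter the nucleus. In mammals the freed dimers also transcribe genes for their own inhibitors, the IkB alpha gene and TNFAIP3 among them, and for some of the factors themselves.

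The study exposed larvae of the AB strain, a standard laboratory strain, to lethal cold. It asked how inhibitors that lower survival of a longer exposure act on transcripts. For 12 h at 10 °C, the exposure used here, it reports no effect of them on survival. The 27 libraries fell into 9 groups of 3. Larvae of the 96hpf group were untreated and taken at 96 h post fertilization, when exposure began. All other larvae were kept for 12 h at the rearing temperature of 28 °C or at 10 °C, and received the vehicle, 0.1% DMSO (28C_DMSO and 10C_DMSO), or 1 of 3 inhibitors. These were 0.5 µM AS1842856, which inhibits the transcription factor Foxo1 (28C_AS and 10C_AS), 5 µM PD0325901, which inhibits MEK, the kinase that activates ERK (28C_PD and 10C_PD), and 50 µM SB203580, which inhibits p38 kinases (28C_SB and 10C_SB). The study dissolved these inhibitors in DMSO, of which the medium held at most 0.1%. Each library came from pooled whole larvae, so a change cannot be placed in a cell type. More cells of a type also cannot be told apart from more RNA per cell. The labels do not say whether the replicates of a group were separate clutches. The p-values therefore measure only the spread between these samples, which may be technical.

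Levels are given as scaled TPM. TPM is the share of a gene among all transcripts of a library after correction for transcript length, and it was scaled here by a size factor for each library of 0.9405 to 1.109. Differences are log2 differences of scaled TPM plus 1, fitted with limma, and p-values were adjusted over all 24101 genes by the Benjamini-Hochberg method. A gene counted as called when its adjusted p did not exceed 0.05 and its fold was at least 1.5. TPM keeps no read depth, and the read numbers that the study lists in its supplement were not used here. Library totals were 996255 to 997428 TPM, and none of the member values was 0. The first principal component, with 43.97% of the variance, separated the temperatures. Replicate 1 of 10C_DMSO and replicate 1 of 28C_DMSO stood somewhat apart, with the lowest library weights from limma (0.499 and 0.53) and the lowest mitochondrial shares (8.42% and 7.30%). In each cold group replicate 1 also had the lowest first component. Markers of organs that a whole larva holds were all present, at 7.26 scaled TPM or more in every library. Leukocytes, in which NF-kB genes are active, were followed with 25 marker identifiers. Their summed level was 340.2 to 379.2 in 28C_DMSO and 316.4 to 406.1 in 10C_DMSO, and none of them was at 0 in all libraries of a group. Both identifiers of lyz, at 34.2 to 99.7 and 57 to 172 scaled TPM over all libraries, weigh most in that sum.

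Cold raised 5 of the 10 identifiers and lowered none. The 5 were the IkB genes nfkbiaa and nfkbiab, the factor genes rel and nfkb2, and tnfaip3, when 10C_DMSO was compared with 28C_DMSO. Among all genes 15.8% were called in this comparison, 8.73% as higher and 7.06% as lower. The median log2 difference was 0.89 over the 10 identifiers and -0.0047 over all genes. Without replicate 1 of 10C_DMSO and of 28C_DMSO, an alternative chosen after seeing the data, 5 were called higher as well.

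The largest rise was that of nfkbiaa, 1 of the pair of zebrafish genes for IkB alpha, which masks the nuclear localization signal of Rel dimers. Its scaled TPM in the 3 libraries of 28C_DMSO was 23.8, 23 and 19.6, and in those of 10C_DMSO 181, 158 and 163. Every 10C_DMSO library was thus far above every 28C_DMSO library. The log2 difference was 2.86 with a standard error of 0.13 (adjusted p = 7.89e-14), and its 95% interval covered folds of 6.06 to 8.71.

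The second IkB alpha gene, nfkbiab, was the more abundant of the pair in warm larvae. It was at 58.9, 51 and 47.3 scaled TPM in 28C_DMSO and at 196, 182 and 191 in 10C_DMSO, a log2 difference of 1.84 with a standard error of 0.09 (adjusted p = 7.34e-13). The groups did not overlap. The pair therefore stood at 22.2 ± 2.22 and 52.4 ± 5.96 in 28C_DMSO, and at 167 ± 12.0 and 190 ± 7.41 in 10C_DMSO (mean ± SD of scaled TPM, n = 3), with nfkbiaa the lower in each.

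Among the factors, rel, which encodes c-Rel, a subunit with a transactivation domain, rose most. It was at 4.12, 5.08 and 3.7 scaled TPM in 28C_DMSO and at 24.6, 25.6 and 28.5 in 10C_DMSO. The log2 difference was 2.37 with a standard error of 0.11 (adjusted p = 1.76e-13), with folds of 4.40 to 6.03 in its interval. No library of one group came near the other group.

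The factor nfkb2 encodes p100, which acts as an IkB until it is processed to the DNA-binding subunit p52. It was the most abundant factor transcript in every group, at 13.6, 13.2 and 13.5 scaled TPM in 28C_DMSO and 38.4, 42.9 and 44 in 10C_DMSO. The log2 difference was 1.57 with a standard error of 0.10 (adjusted p = 5.37e-11). Its 28C_DMSO libraries lay within a narrow range, and its 10C_DMSO libraries were all well above it.

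The deubiquitinase gene tnfaip3, which encodes A20, an enzyme that restrains the signal ahead of the IkB kinases, rose with a wide spread. It was at 1.43, 1.78 and 1.48 scaled TPM in 28C_DMSO and at 9.12, 6.32 and 2.65 in 10C_DMSO. The groups did not overlap, but the third cold library was much closer to the warm ones than the other cold libraries were. The log2 difference was 1.34 with a standard error of 0.28 (adjusted p = 6.56e-04). It was 1.75 without 10C_DMSO replicate 3 and 1.01 without 10C_DMSO replicate 1, and it passed the test in both cases.

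The other factors and nfkbib were not called in the cold response. The gene rela encodes p65, the partner of p50 in the classical dimer. It was at 5.64, 5.97 and 5.8 scaled TPM in 28C_DMSO and at 4.87, 4.71 and 3.48 in 10C_DMSO, with no overlap. Its log2 difference of -0.36 (SE 0.11) passed the adjusted p, at 0.0106, and not the fold. The gene relb, whose product pairs with p52 in the alternative pathway, was at 6.87, 7.14 and 7.55 scaled TPM against 8.37, 10.6 and 11.6 in 10C_DMSO. Its log2 difference of 0.44 (SE 0.11) likewise passed the adjusted p, at 0.003, and not the fold. For nfkb1, which encodes p105 and p50, the groups overlapped and the log2 difference was 0.08, with a 95% interval of -0.32 to 0.48 (adjusted p = 0.775).

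The 2 identifiers of nfkbib, the gene for IkB beta, share a symbol, and transcripts may have been split between them. The first, ENSDARG00000030087, was at 46.3 ± 0.917 scaled TPM in 28C_DMSO and 51.3 ± 1.38 in 10C_DMSO, and the second, ENSDARG00000109444, at 16.3 ± 3.25 and 16.8 ± 1.18 (mean ± SD, n = 3). Their log2 differences were 0.15 and 0.05. With both summed, in an analysis chosen after seeing the data, nfkbib differed by 0.12, with a 95% interval of -0.04 to 0.28 (adjusted p = 0.223). Of the IkB genes among the members, nfkbib was thus the one without a called cold response.

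**Figure D1:**
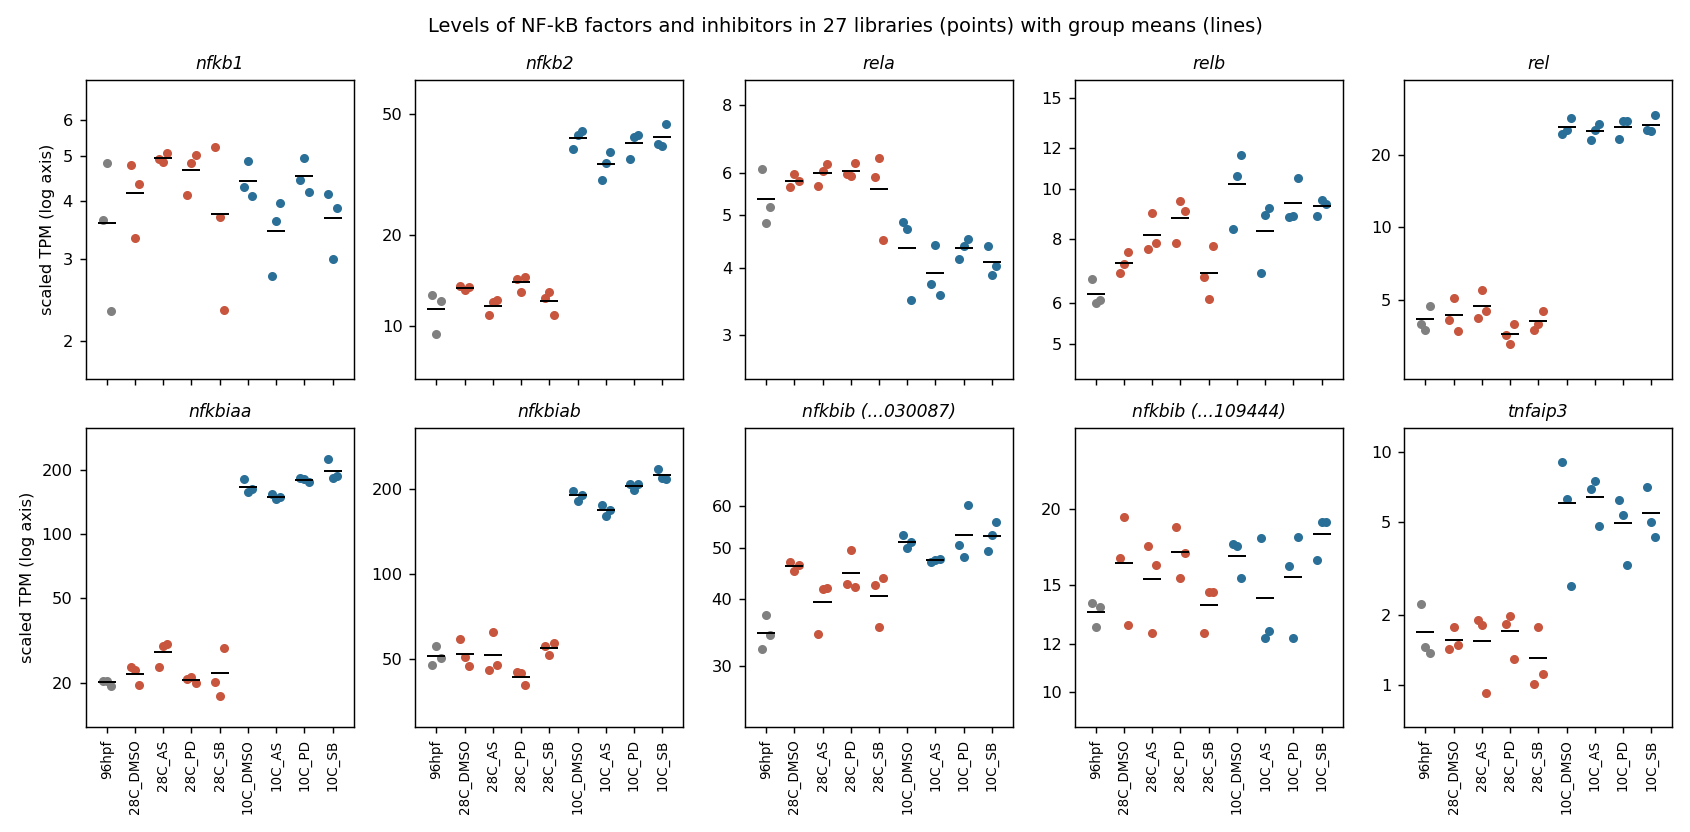
Scaled TPM of each identifier (log axis, with its own range in each panel) in the 27 libraries by group; points are libraries, lines are group means, and 96hpf is grey, 28 °C red and 10 °C blue. In the panels of nfkb2, rel, nfkbiaa, nfkbiab and tnfaip3 all 12 blue points lie above all 15 others, while in the other panels the colours overlap.

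The same 5 genes separated cold from warm libraries under every treatment. All 12 libraries from 10 °C, with or without an inhibitor, were above all 15 other libraries for nfkb2, rel, nfkbiaa, nfkbiab and tnfaip3, and no identifier had all cold libraries below all others. Among all genes 6.53% had all cold libraries above and 4.8% all below. For nfkbiaa the cold libraries held 146 to 226 scaled TPM with a median of 178, and the others 17.5 to 30.7 with a median of 20.9. For nfkbiab the ranges were 160 to 235 and 40.5 to 62.6, and for rel 23.2 to 29.5 and 3.27 to 5.47. For nfkb2 they were 30.4 to 46.5 and 9.41 to 14.6. The gap was narrowest for tnfaip3, at 2.65 to 9.12 in the cold and 0.923 to 2.23 elsewhere. For rela the ranges overlapped, at 3.48 to 4.87 in the cold and 4.50 to 6.38 elsewhere.

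The cold response was also taken within each inhibitor, as 10C_AS against 28C_AS, 10C_PD against 28C_PD and 10C_SB against 28C_SB. These share no library with one another. In each, 5 of 10 identifiers were called higher and none lower, and they were the 5 that rose with DMSO. Of all genes 22.4% were called with AS1842856 (12.2% higher and 10.2% lower), 17.5% with PD0325901 (10.4% and 7.17%) and 16.2% with SB203580 (9.39% and 6.83%). With PD0325901 the higher genes were 59.1% of those called, and 37.7% with TPM as deposited.

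The cold response of nfkbiaa was 2.38 with AS1842856, 3.06 with PD0325901 and 3.12 with SB203580 on the log2 scale, each with a standard error of 0.13. That of nfkbiab was 1.68, 2.22 and 2.01, each with a standard error of 0.09. The inhibitors of the pair thus rose at least 2.81-fold at the lower end of every interval. The log2 rise of rel was 2.20, 2.57 and 2.45 and that of nfkb2 was 1.47, 1.46 and 1.71, in the same order. For tnfaip3 it was 1.55, 1.12 and 1.49, each with a standard error of 0.28. The largest adjusted p among these, that of tnfaip3 with PD0325901, was 0.00276 in limma. That call was lost when replicate 2 was left out of all groups, with a log2 rise of 1.13 (adjusted p = 0.06).

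The factors that were not called with DMSO were not called with an inhibitor either. The log2 difference of rela was -0.51 with AS1842856, -0.40 with PD0325901 and -0.36 with SB203580, all with adjusted p under the threshold (3.75e-04, 0.00414 and 0.00926) and all short of the fold. With AS1842856 it passed the fold, at -0.59, once 10C_AS replicate 2 was left out, and at -0.61 with a pseudocount of 0.1. For relb the values were 0.02, 0.08 and 0.38, against 0.44 with DMSO. For nfkb1 they were -0.43, -0.03 and 0.02, of which the first had an adjusted p of 0.0665.

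**Figure D2:**
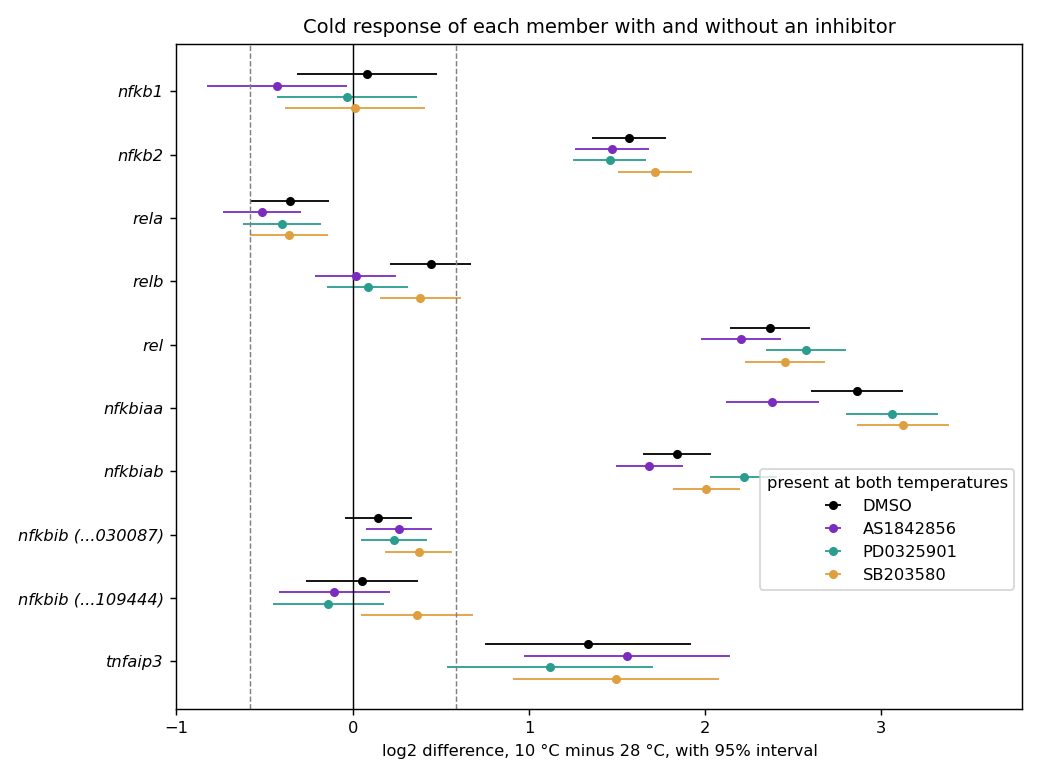
Log2 difference between 10 °C and 28 °C for each identifier, with the vehicle or the same inhibitor at both temperatures; points are limma estimates, bars 95% intervals, and dashed lines mark a fold of 1.5 in either direction. The intervals of nfkb2, rel, nfkbiaa and nfkbiab lie to the right of the dashed line under all 4 treatments, and those of rela lie below 0.

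Against the larvae at the start of exposure the picture of the 5 genes was the same, and relb joined them. In 10C_DMSO compared with 96hpf, 6 of 10 identifiers were called higher and none lower, while 12.4% of all genes were called, 7.14% as higher and 5.27% as lower. Of the genes called 57.5% were higher, and 36.1% with TPM as deposited, under which the median of all genes shifted to -0.14 on the log2 scale. The log2 rises were 2.98 for nfkbiaa, 2.41 for rel, 1.86 for nfkbiab, 1.79 for nfkb2 and 1.28 for tnfaip3. The comparison shares the 10C_DMSO libraries with the cold response above.

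The rise of relb was close to the threshold. It was at 6.7, 6.01 and 6.1 scaled TPM in 96hpf and at 8.37, 10.6 and 11.6 in 10C_DMSO, a log2 difference of 0.61 with a standard error of 0.11 (adjusted p = 1.79e-04). The call was lost with TPM as deposited, at 0.47, and without 10C_DMSO replicate 2 or replicate 3, at 0.58 and 0.52. The larger nfkbib identifier, ENSDARG00000030087, sat just on the other side of the fold threshold, with a log2 difference of 0.56 (adjusted p = 6.02e-05). It was called without 96hpf replicate 2, at 0.61.

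The warm controls differed from the larvae at the start by 12 h at 28 °C and by the vehicle. Between 28C_DMSO and 96hpf none of the 10 identifiers was called by limma, of all genes 2.75%, and 2 identifiers had an unadjusted p under 0.05. The larger nfkbib identifier was at 32.2, 37.4 and 34.2 scaled TPM in 96hpf and at 47.1, 45.3 and 46.4 in 28C_DMSO, without overlap. Its log2 difference of 0.41 (SE 0.09, adjusted p = 0.00463) passed the adjusted p and not the fold. Its log2 difference between cold and warm was 0.15, and the gap between these values was not tested. The other was nfkb2, with a log2 difference of 0.23 (adjusted p = 0.179).

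No inhibitor changed a member past the thresholds at 10 °C. The comparisons of 10C_AS, 10C_PD and 10C_SB with 10C_DMSO share their controls, so each is given with its own values. For AS1842856 0 of 10 identifiers were called against 0.925% of all genes, and 2 had an unadjusted p under 0.05. For PD0325901 0 were called against 0.382%, with 0 under an unadjusted 0.05. For SB203580 0 were called against 0.0207%, with 1 under it. Of all genes 223, 92 and 5 were called in these comparisons. By its test of counts the study reports more in each, so the lack of calls holds for limma on TPM. The 95% intervals of all members lay between -0.69 and 0.77 on the log2 scale for AS1842856, -0.74 and 0.43 for PD0325901, and -0.62 and 0.57 for SB203580. The outer ends belong to nfkb1 and tnfaip3, whose intervals reached past the fold threshold of 0.585, so a change of that size is not excluded for them.

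In 10C_AS the median of the 10 log2 differences from 10C_DMSO was -0.16, against 0.0021 over all genes, and none passed the test. The lowest unadjusted p was that of nfkb2, at 30.4, 34.7 and 37.7 scaled TPM in 10C_AS against 38.4, 42.9 and 44 in 10C_DMSO. The highest 10C_AS library was just below the lowest control. The log2 difference was -0.28, with a 95% interval of -0.49 to -0.07 (adjusted p = 0.124). For relb, at 6.86, 8.88 and 9.16 in 10C_AS, it was -0.27 (adjusted p = 0.186). For nfkbiaa, at 154, 146 and 150 in 10C_AS, it was -0.15, and for nfkbiab, at 175, 160 and 169, it was -0.18. Both were below all control libraries and neither passed the test, with adjusted p of 0.561 and 0.306.

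In 10C_SB the IkB alpha genes were the highest of all groups. The scaled TPM of nfkbiaa was 226, 183 and 187, and that of nfkbiab 235, 218 and 217, each above all 3 control libraries. The log2 differences from 10C_DMSO were 0.24 for nfkbiaa, with an interval of -0.02 to 0.51 (adjusted p = 0.616), and 0.23 for nfkbiab, with an interval of 0.04 to 0.43 (adjusted p = 0.464). In 10C_PD nfkbiaa was at 183, 182 and 176 and nfkbiab at 209, 198 and 209, between the groups with DMSO and with SB203580 in mean level. The factors rel and nfkb2 differed from 10C_DMSO by at most 0.06 on the log2 scale with PD0325901 or SB203580.

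Because nfkbiaa and nfkbiab stood lowest in 10C_AS and highest in 10C_SB, the inhibitor groups were also compared with each other, a choice made after seeing these levels. No identifier was called in any of the 3 pairs, of all genes 0.386% for 10C_SB against 10C_AS, 0.436% for 10C_PD against 10C_AS and 0.191% for 10C_SB against 10C_PD. Between 10C_SB and 10C_AS the log2 difference was 0.41 for nfkbiab, with a 95% interval of 0.22 to 0.60 (adjusted p = 0.026), which is short of the fold. For nfkbiaa it was 0.39, with an interval of 0.13 to 0.66 (adjusted p = 0.144). Since the pair was picked for that difference, these values are a description. The neighbours 10C_DMSO and 10C_PD in the order of nfkbiaa overlapped, as did 10C_PD and 10C_SB. In the order of nfkbiab the same neighbouring groups did not overlap, and neither step was called.

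No member was called with an inhibitor at 28 °C either. None of the 10 identifiers was called with AS1842856 against 12.2% of all genes, with PD0325901 against 1.49%, or with SB203580 against 0.0207%. An unadjusted p under 0.05 was seen for 2, 2 and 1 identifiers. These comparisons share the 28C_DMSO libraries.

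With AS1842856 nfkbiaa was at 23.9, 29.9 and 30.7 scaled TPM, above all 28C_DMSO libraries, with a log2 difference of 0.33 (SE 0.13, adjusted p = 0.0481) that was short of the fold. The larger nfkbib identifier was lower, at 34.4, 41.9 and 42.1 in 28C_AS, by -0.23 (adjusted p = 0.0561). The summed leukocyte markers, in which lyz weighs most, were 181.9 to 221.7 in 28C_AS, the lowest of all groups. Their median log2 difference from 28C_DMSO was -0.26 in 28C_AS, -0.28 in 28C_PD and -0.22 in 28C_SB. The part of leukocytes in these values was not tested. With PD0325901 nfkbiab was at 45, 44.7 and 40.5, below all controls, with a log2 difference of -0.26 (adjusted p = 0.0957). The factor relb was at 7.85, 9.46 and 9.05 in 28C_PD, above all controls, with a difference of 0.25 (adjusted p = 0.201).

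**Figure D3:**
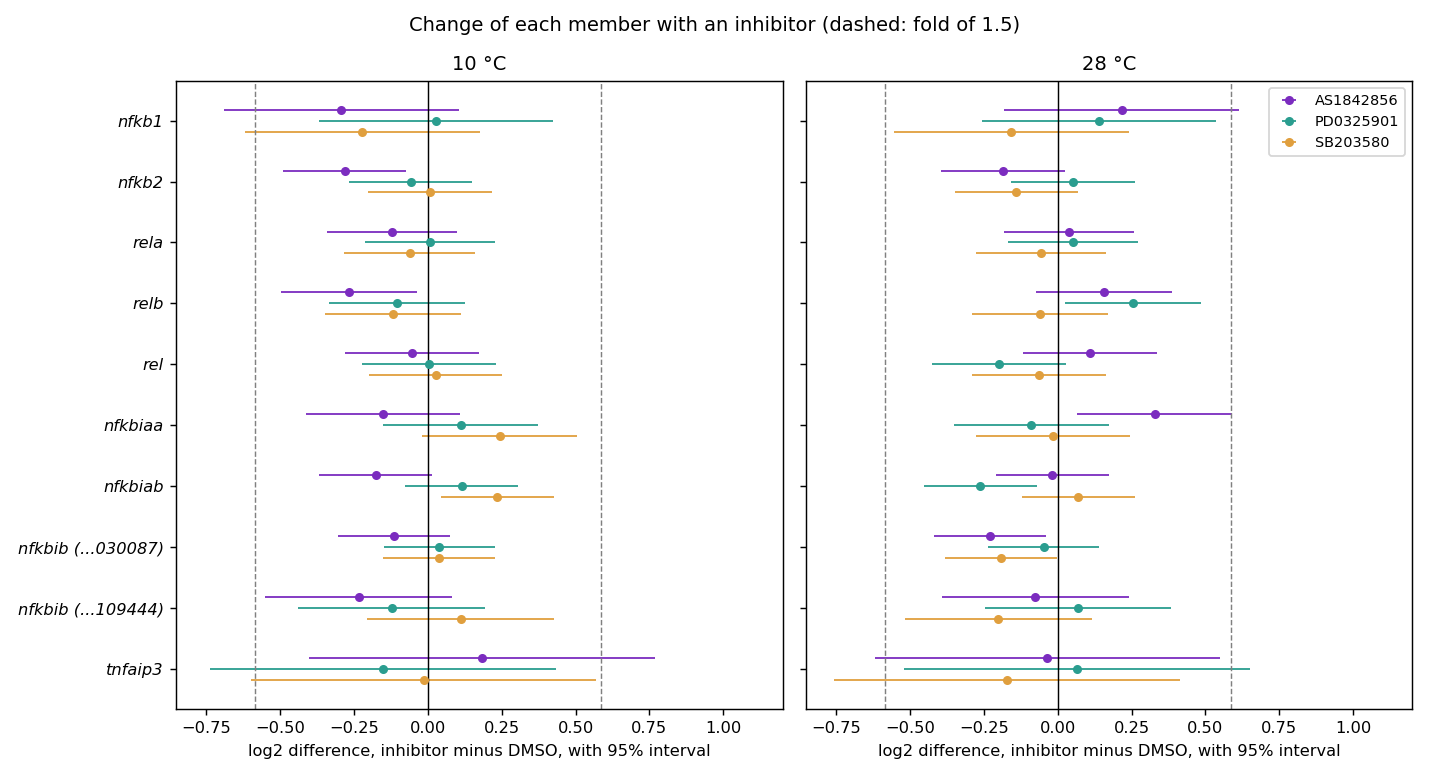
Log2 difference between each inhibitor and DMSO at 10 °C (left) and 28 °C (right) for each identifier; points are limma estimates, bars 95% intervals, and dashed lines mark a fold of 1.5. All points lie between the dashed lines, and the widest intervals are those of tnfaip3.

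Whether an inhibitor acted differently in the cold was asked by subtracting its effect at 28 °C from its effect at 10 °C. No identifier was called for AS1842856, PD0325901 or SB203580, of all genes 10.8%, 1.62% and 0.029%, and 2, 2 and 0 identifiers had an unadjusted p under 0.05. For AS1842856 the lowest adjusted p were those of relb, with a difference of -0.42 (adjusted p = 0.0579), and nfkbiaa, with -0.48 (adjusted p = 0.0597). In both, the inhibitor group was above DMSO at 28 °C and below it at 10 °C. Without 28C_AS replicate 1 nfkbiaa was called, at -0.59 (adjusted p = 0.0245). For PD0325901 the difference was 0.38 for nfkbiab (adjusted p = 0.111) and -0.36 for relb (adjusted p = 0.236).

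The makeup of the factor pool was different in the cold. The summed level of the 5 factors was 34.7 to 35.0 scaled TPM in 28C_DMSO and 80.5 to 91.7 in 10C_DMSO. Of that sum nfkb2 made up 38.5 ± 0.478% in 28C_DMSO and 48.0 ± 0.318% in 10C_DMSO, and rel 12.3 ± 2.08% and 30.1 ± 1.15% (mean ± SD, n = 3). The shares of the others were correspondingly smaller in the cold. Those of rela were 16.6 ± 0.560% and 5.05 ± 1.15%, those of relb 20.6 ± 1.02% and 11.7 ± 1.18%, and those of nfkb1 11.9 ± 2.09% and 5.11 ± 0.543%. In 28C_DMSO the order of the factors by level was nfkb2, relb, rela, rel and nfkb1, with rel and nfkb1 overlapping. In 10C_DMSO it was nfkb2, rel and relb, followed by nfkb1 and rela, whose libraries overlapped.

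The inhibitors outnumbered the factors throughout. The 5 inhibitor identifiers summed to 127.7 to 147.9 scaled TPM in 28C_DMSO and 413 to 456.4 in 10C_DMSO. The ratio of inhibitor to factor transcripts was 4.22, 4.05 and 3.66 in the 28C_DMSO libraries and 5.67, 4.66 and 4.61 in the 10C_DMSO libraries. The groups did not overlap, and 10C_DMSO replicate 1 held the highest ratio of its group. Replicate 1 was also the highest of its group in 10C_AS, 10C_PD and 10C_SB, with 5.99, 6.08 and 6.44. Over groups the mean ratio was 3.45 to 4.13 without cold and 4.98 to 5.84 with it. Single libraries overlapped, since the ratio of 4.86 in 28C_SB replicate 3 was above those of replicates 2 and 3 of both 10C_DMSO and 10C_AS. By identifier nfkbiab had the highest inhibitor level in 28C_DMSO, followed by the larger of nfkbib, whereas both nfkbib identifiers summed were above nfkbiab there. In 10C_DMSO each IkB alpha gene stood above that sum. These sums follow from the levels above and carry no test of their own.

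**Figure D4:**
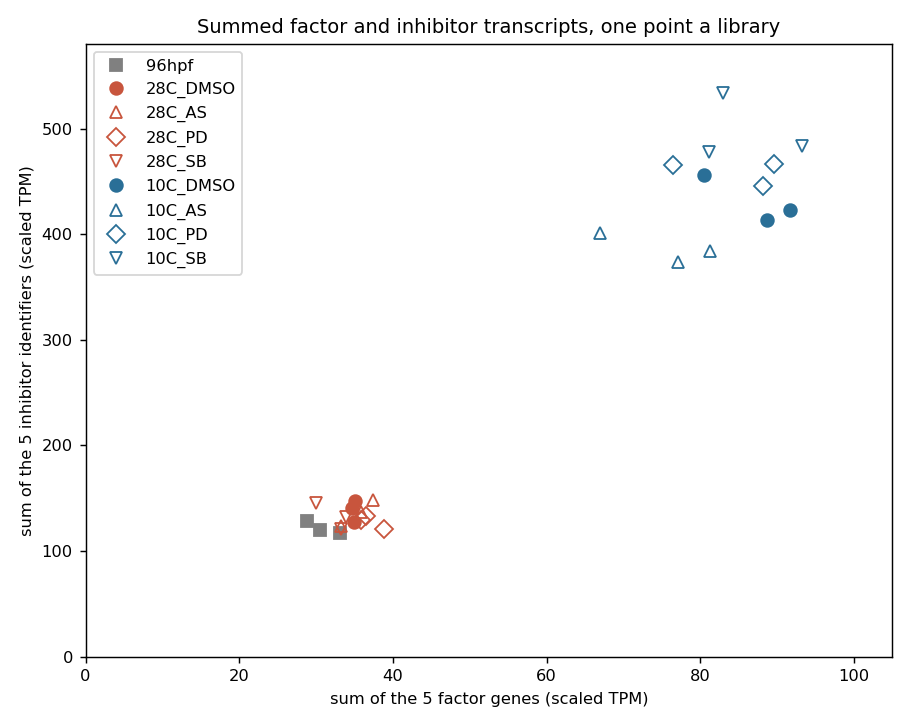
Summed scaled TPM of the 5 factor genes (x axis) and of the 5 inhibitor identifiers (y axis), 1 point per library; filled circles are DMSO, grey squares 96hpf, open symbols the inhibitors, red 28 °C and blue 10 °C. The warm libraries lie in one cluster with factor sums of 28.8 to 38.9, and the cold ones in another with factor sums of 67.0 to 93.3.

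Across the 27 libraries nfkb2, rel, nfkbiaa and nfkbiab were closely alike, and tnfaip3 was less like them. Pearson's r of log2 levels was 0.991 between rel and nfkbiaa, and 0.990 between nfkbiaa and nfkbiab. It was 0.980 between nfkb2 and rel, 0.971 between nfkb2 and nfkbiaa, and 0.867 to 0.893 for tnfaip3 with the other members that rose. That of rela with nfkbiab was -0.854. These values describe a split by temperature that the libraries share, and 4.84 to 5.36% of 16498 genes with a group mean of 5 or more had an r of at least 0.9 with nfkb2, rel, nfkbiaa or nfkbiab. After the group means were subtracted, r was 0.205 between rel and nfkbiaa and 0.524 between nfkbiaa and nfkbiab. It was 0.528 between nfkb2 and rel, and -0.314 between nfkb2 and nfkbiaa. For tnfaip3 it was -0.359 with nfkb2, -0.379 with rel, 0.0476 with nfkbiaa and 0.0482 with nfkbiab. For these pairs the within-group values were thus much lower than those over all libraries, and they rest on the same 27 libraries. That did not hold for every pair, since nfkb1 with rela was at 0.331 over all libraries and 0.317 within groups. The highest within-group value was 0.56, of rela with tnfaip3, which stood at -0.681 over all libraries.

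The nearest genes in pattern were named by a fixed rule, as the 3 with the highest r. For rel they were CU459186.2 (0.992) and si:dkey-108k21.10 (0.991), which carry clone names, and sik1 (0.992), which encodes a salt-inducible kinase. For nfkb2 they were tnrc18 (0.990), UBB (0.989), a ubiquitin gene, and amotl2b (0.988), a gene of the angiomotin family. For nfkbiaa they were rel, nfkbiab and CU459186.2 (0.989), and for nfkbiab nfkbiaa, id1 (0.988), a helix-loop-helix inhibitor of transcription, and rel (0.986). For tnfaip3 the likeness was weaker, with znf1035 (0.950), pde4d (0.949), a phosphodiesterase gene, and tcf3a (0.938), and only 0.461% of the genes reached 0.9. In tnfaip3 replicate 3 was the lowest in all 4 cold groups and in 7 of the 9 groups. Replicate 1 was the lowest for relb in 4 of 4 cold groups and in 7 of 9 groups. The numbers come from the labels, which do not say what a number stands for.

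The rest of the pathway was followed with lists of genes, counted by identifier in the cold response with DMSO. The share of all genes called there was 15.8%, and lists are given by counts and medians alone. Not all listed symbols were measured, so counts and medians hold for the measured part. It was 27 of 35 symbols for receptors and adaptors, and 19 of 22 for kinases and ligases. For other inhibitors it was 20 of 21, and for leukocyte markers 21 of 25. Of 30 receptor and adaptor identifiers 5 were called higher and 3 lower, with a median log2 difference of 0.01. The ubiquitin ligase genes traf6 and traf3 rose by 1.06 (SE 0.09) and 1.14 (SE 0.15) on the log2 scale, traf6 from 6.80 ± 0.500 to 15.2 ± 0.640 scaled TPM. By contrast traf2a, an adaptor of TNF receptors, went from 8.40 ± 0.585 to 3.99 ± 0.145, a log2 difference of -0.91 (adjusted p = 0.0123). Against 96hpf traf2a differed by -0.57 in 10C_DMSO and was not called. Its cold response was not called with AS1842856, at -0.40, and was called lower with PD0325901 and SB203580, at -0.90 and -1.17. With PD0325901 the groups overlapped, at 19, 7.74 and 9.24 scaled TPM in 28C_PD and 4.2, 9.02 and 4.34 in 10C_PD. The gene il1rapl1a (ENSDARG00000115285), whose symbol is shared and whose product is known from synapses, differed by -1.02. Its other entry, ENSDARG00000062045, differed by -0.50 and was not called.

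Of 20 kinase and ligase identifiers 2 were called higher and 3 lower, with a median of -0.12. Those named by the rule were map3k8, a kinase bound to p105, at 0.99, map3k14a, the kinase of the alternative pathway that acts on p100, at 0.70, and ikbke, a relative of the IkB kinases, at -0.71. The level of map3k8 was low in 28C_DMSO, at 1.17, 0.886 and 0.124 scaled TPM. Against 96hpf it was called at 0.61. Its cold response was not called with AS1842856, at 0.45, and was called with PD0325901 and SB203580, at 0.98 and 1.06. The ubiquitin ligase gene rbck1 was called at -0.98 although its groups overlapped, with 7.93, 10.4 and 6.67 scaled TPM in 28C_DMSO and 2.67, 2.23 and 7.56 in 10C_DMSO. Against 96hpf, 10C_DMSO differed by -0.04, whereas 28C_DMSO was called higher, at 0.94. The cold response of rbck1 was called higher with AS1842856, at 0.74, and was not called with PD0325901 (-0.47) or SB203580 (0.12). So kinase and ligase genes were called in both directions in the cold response with DMSO, while both IkB alpha genes rose.

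Of 23 identifiers of other inhibitors 5 were called higher and 1 lower, with a median of -0.01. The A20-binding protein gene tnip2 was at 1.27, 1.01 and 1.17 scaled TPM in 28C_DMSO and at 6.71, 7.87 and 7.53 in 10C_DMSO, without overlap. Its log2 difference was 1.96 with a standard error of 0.09 (adjusted p = 8.45e-14). The entry ENSDARG00000045422 of otulina, a linear deubiquitinase gene with a shared symbol, rose by 1.15. The other otulina entries, ENSDARG00000073931 and ENSDARG00000095829, differed by -0.55 and -0.50 and were not called. The gene bcl3, a nuclear IkB that can also activate, rose by 1.05 from a mean of 0.436 scaled TPM. The deposited data keep only genes that reached 1 TPM in all replicates of some group, and bcl3 did so only in cold groups. Its rise and its place in the count are therefore a description. The nuclear IkB gene nfkbiz was called lower, at -0.85 (adjusted p = 0.0077).

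Genes listed as NF-kB targets formed the list with the highest share of calls, which is a description of a list chosen with earlier results known. Of 35 identifiers 21 were higher and 1 lower, which is 62.9%, with a median of 1.00. They cover 34 of 48 listed symbols. The deposited table holds only genes that reached 1 TPM in all replicates of some group, and il11b and tnfb did so only in cold groups. Targets low in the warm and not raised by cold may thus be missing, so the share is not that of all listed targets. Many of them have other inducers as well. The NADPH oxidase organizer gene noxo1a was at 1.64, 1.36 and 0.919 scaled TPM in 28C_DMSO and at 25.8, 25.9 and 33.1 in 10C_DMSO, a log2 difference of 3.67 (SE 0.13, adjusted p = 2.76e-15). The transcription factor gene cebpb rose by 2.94 and socs3a, a brake on cytokine signaling, by 3.38. The prostaglandin synthase gene ptgs2b rose by 5.14.

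Of 25 leukocyte marker identifiers 1 was called higher and 3 lower, a share of 16% beside the 15.8% of all genes, with a median of -0.06. The 1 was mmp13a (ENSDARG00000114451, a shared symbol), a collagenase that is also in the target list, at 2.13. The other mmp13a entry, ENSDARG00000012395, was at -0.03 and not called. The lower ones were the transcription factor genes ikzf1 (-0.90) and spi1b (-0.66) and the chemokine receptor gene cxcr4b (-0.71). The part of leukocytes in the levels of the NF-kB genes was not tested.

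**Figure D5:**
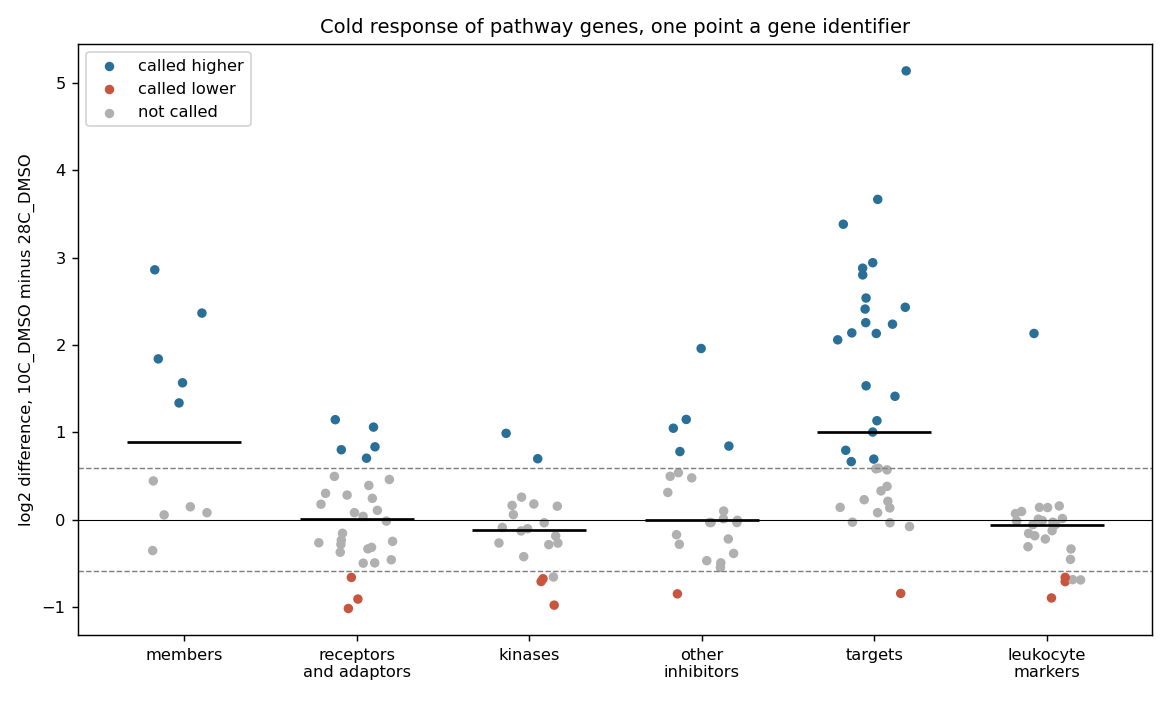
Log2 difference between 10C_DMSO and 28C_DMSO for each gene identifier of 6 lists (members are the NF-kB factors and inhibitors); points are identifiers spread sideways for clarity, black lines list medians, and dashed lines a fold of 1.5. The targets and the members hold most of the called genes above the upper line, and the kinases, receptors and leukocyte markers scatter around 0.

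Although no member was called with an inhibitor at 10 °C, some genes of the lists were. In 10C_PD 1 target was higher and 3 lower than in 10C_DMSO, where 0.12% of all genes were higher and 0.261% lower. The scaled TPM of ptgs2b was 113, 134 and 135 in 10C_DMSO and 21, 29 and 30.7 in 10C_PD, a log2 difference of -2.22 (SE 0.23, adjusted p = 4.39e-06). The cytokine gene il11b was at 1.75, 2.03 and 3.02 in 10C_DMSO and at 0.177, 0 and 0.189 in 10C_PD, with a fitted difference of -1.53 (adjusted p = 4.32e-05). It reached 1 TPM in all replicates only in 10C_DMSO and 10C_SB, and so passed the filter of the study through groups where it was high. Its fall is therefore a description. The other called targets, named after their values were seen, were cebpb, with a difference of -1.09 (adjusted p = 1.34e-05), and tnfb, a TNF gene, with 0.87 (adjusted p = 3.65e-04). In the same comparison the differences of rel and nfkbiaa were 0.00 and 0.11.

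In 10C_SB, where 0.0166% of all genes were called higher and 0.00415% lower, 1 target was called. It was tnfb, at 7.23, 6.16 and 6.38 scaled TPM in 10C_DMSO and 12.1, 10.5 and 11.7 in 10C_SB, with a log2 difference of 0.71 (adjusted p = 0.0182). None of the receptors, other inhibitors, targets or leukocyte markers was called in 10C_AS, where 0.925% of all genes were. Of the 20 kinase and ligase identifiers 1 was called. It was fbxw11b (ENSDARG00000112841), for a subunit of the ligase that marks IkB for destruction, listed at 0 in all 3 10C_AS libraries and at 4.57, 3.04 and 3.75 in 10C_DMSO. Its symbol is shared with ENSDARG00000017230, which was not called, and transcripts may have been split between the copies. The sum of both copies was not tested.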

How the data were processed

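RNA sequencing was analysed in all 27 libraries, grouped by their titles. Per the methods of the study, the authors estimated transcript abundance with Salmon 0.13.1 on Ensembl cDNA, with bias correction, and summed it to genes with tximport. The authors deposited TPM values, after keeping the genes that reached 1 TPM throughout any group, and 0 further genes were removed here. The study itself tested counts, which were not analysed here.

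For each library TPM was scaled by a median-of-ratios size factor and tested as log2(scaled TPM + 1) in R 4.3.3 with limma 3.58.1, with 1 mean per group, 18 residual degrees of freedom and a trended prior, in 18 comparisons. The pseudocount of 1 understates fold changes of low genes. p-values are two-sided, intervals are 95% intervals from limma's moderated standard errors without adjustment, and an exact permutation of 3 against 3 libraries cannot give a p below 0.1. Read depth was not used, so no counting interval is given. No 2 libraries were copies of each other, since at least 99.2% of genes differed in value between any 2. The pipeline was tested on simulated data.

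Members and lists were chosen with earlier results of these data known. All members are named. Of each list, up to 4 identifiers called in the cold response with the largest change are named, and up to 2 for each inhibitor at 10 °C. The most alike genes were the 3 with the highest Pearson r, for members whose group means spanned at least 1 on the log2 scale. Gene names are those of the table, and 2056 symbols are shared by several identifiers. No coordinates or sequences are given. Alternatives were other pseudocounts, scalings, filters, spread estimates, a replicate block and leaving out libraries.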

Additional observations from a re-analysis of the deposited data

Results flagged for a closer look

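For 9 results of list genes named in the report, the change with an inhibitor at 10 °C differed from its change at 28 °C by limma's interaction test, with adjusted p from the Benjamini-Hochberg method over all genes. None of the NF-kB factors and inhibitors was among them. The genes were named for their cold response with DMSO or for a call with an inhibitor at 10 °C. Those values also enter the interaction test, so the results are a description of picked genes. Of all genes 10.8% were called in this test with AS1842856, 1.62% with PD0325901 and 0.029% with SB203580. Differences are the log2 change at 10 °C minus that at 28 °C, with 3 libraries in each group. With PD0325901 they were -1.70 for ptgs2b (SE 0.32, adjusted p = 0.00303), -1.41 for il11b (SE 0.26, adjusted p = 0.00246), -1.0 for socs3a (SE 0.24, adjusted p = 0.017) and -0.79 for cebpb (SE 0.17, adjusted p = 0.00876).

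With AS1842856 the differences were 1.73 for rbck1 (SE 0.42, adjusted p = 0.00522), -0.84 for bcl3 (SE 0.28, adjusted p = 0.0353), -1.29 for socs3a (SE 0.24, adjusted p = 3.98e-04) and -1.01 for il11b (SE 0.26, adjusted p = 0.00789). None of these genes was called with AS1842856 at 10 °C. At 28 °C and at 10 °C the change was -1.05 and 0.68 for rbck1, and 0.68 and -0.17 for bcl3. The scaled TPM of socs3a was 10.4, 15.8 and 14.3 in 28C_AS against 7.01, 7.55 and 4.11 in 28C_DMSO. That of il11b was 0.884, 1.08 and 1.25 in 10C_AS against 1.75, 2.03 and 3.02 in 10C_DMSO. For fbxw11b (ENSDARG00000112841) the fitted difference was -2.27 (SE 0.59, adjusted p = 0.00802). It rests on 3 libraries of 10C_AS listed at 0, so it depends on the pseudocount and is no bound. The values of il11b also include libraries listed at 0. It was at 0, 0.384 and 0 scaled TPM in 28C_DMSO and at 0, 0 and 0.0965 in 28C_PD. A fall with PD0325901 at 28 °C thus had little room to show. Both bcl3 and il11b reached 1 TPM in all replicates only in cold groups, through which they entered the deposited data. No cause was tested.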

How the results depend on the processing

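All 5 calls of the cold response with DMSO held in every alternative that tested them, and no called value of the 180 member results changed sign. A filter of at least 5 TPM in all replicates of a group left 8 members and did not test nfkb1 and tnfaip3. Of 372 recomputed counts of called members 371 were within 1.5 times the reported count. The other was AS1842856 by temperature, with 1 called without 28C_AS replicate 1. When libraries were left out 1 at a time or by number, the count was 5 to 5 for the cold response with DMSO, 5 to 6 with AS1842856, 4 to 5 with PD0325901 and 5 to 5 with SB203580, 5 to 7 for cold against the start, 0 to 1 for AS1842856 by temperature and 0 to 0 for the others. Without replicate 1 of 10C_DMSO and of 28C_DMSO together, an alternative chosen after seeing the data, 5 were called in the cold response. Without replicate 2 in any group, also chosen then, tnfaip3 was lost against the start (1.14, adjusted p = 0.0738 in limma). Uncalled differences of up to 0.218 in size changed sign in 62 results, so their direction is not to be read. The rule for pairing by number was not met (mean residual correlation 0.0152, against -0.0076 for others, and 0 of 15 comparisons with all 3 pairs over 0.1, the nearest being the cold response with DMSO at 0.294, 0.125 and 0.083), and with a replicate block the count was 5 in the cold response and the same as reported in 18 of 18 comparisons. Read depth was not used, so the precision given for low genes such as tnfaip3 rests on replicates alone.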
